A study of Arabidopsis thaliana with 30 samples.

Results

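The 9 genes described here belong to the phosphate starvation response of Arabidopsis thaliana: SPX1, SPX3 and IPS1 in signalling, PHT1;4 and PHO1;H1 in phosphate transport, PAP17 among the phosphatases, and SQD1, SQD2 and MGD3 in membrane lipid synthesis. They are textbook genes of that response, picked out by locus with no threshold on a measured value, though earlier results of these data were known when the list was made. All 9 were found among the 32679 gene entries of the count tables, and 7 of them passed the filter on low counts. SPX3 and IPS1 did not.

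Plants short of phosphate switch on a common set of genes through the transcription factor PHR1, which is held back by SPX proteins when phosphate, read as inositol pyrophosphates, is plentiful. The set holds transporters that take phosphate up, secreted and vacuolar acid phosphatases that release it from organic compounds, and enzymes that replace phospholipids in membranes with sulfolipid and galactolipid. Transcripts of several of these genes are widely used as gauges of the phosphate status of a plant.

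RNA was sequenced from shoots in 30 libraries, 3 in each of 10 groups. The series concerns growth of plants that carry artificial zinc-finger transcription factors, and asks what such factors change. In the labels EAR-13-068, EAR-15-025 and EAR-15-053 are lines of the genotype EAR, the name of a plant repression motif, and VP16-02-003 and VP16-05-014 are lines of the genotype VP16, the name of a viral activation domain. The EAR pool 13, EAR pool 15, VP16 pool 2 and VP16 pool 5 backgrounds carry the same 2 genotype labels, and Col-0 is the usual wild-type reference accession. Each line was matched to the pool whose number its name holds. Promoters driving the factors, their target sequences, plant age, growth medium and phosphate supply are not stated in the labels, and no group is labelled as starved of phosphate.

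Libraries held 10076308 to 40780331 reads on genes. Nothing in the labels says that the 3 libraries of a group came from separate plants, so the p-values reflect the spread among these libraries alone, which may be technical. In bulk shoots, fewer cells of a type and less RNA per cell cannot be told apart. All 8 leaf markers passed the filter, and their summed level was 64086 to 99435 CPM (reads per 1000000 after TMM scaling, the trimmed mean of M-values). The 9 root markers summed to 56.9 to 106.5 CPM, of which PYK10 alone, a beta-glucosidase of roots and hypocotyls, averaged 75.5 CPM, and 7 of the 9 averaged under 0.5 CPM. The 5 flower markers summed to at most 1.97 CPM. Earlier work on these counts had set 4 libraries apart by eye on their whole transcriptome, namely replicate C of EAR-13-068, of EAR-15-053 and of VP16-05-014, and replicate A of EAR-15-025.

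PHR1 is known to bind a short palindrome, the P1BS element GNATATNC. A match to it lies before 4 of the 9 genes, and stretches around such matches are shown for that reason. The element was searched in the 1000 bases before each annotated gene start in RefSeq's TAIR10.1 assembly. The motif is its own reverse complement, so 1 search covers both strands, and no other motif was searched. It was found before 4 of the 9 genes, before 32 of the 60 genes of a wider phosphate list (53.3%) and before 20.3% of 26711 protein-coding genes. In the nearest 250 bases it was found before SPX3 alone among the 9, before 16 of the 60 (26.7%) and before 5.44% of all. The matches, in capitals with 26 bases on each side, lie at chr5:6801521-6801580 (plus strand, 728 bases before SPX1), chr2:18606171-18606230 and chr2:18606294-18606353 (plus strand, 206 and 83 bases before SPX3), chr3:3050381-3050440 (plus strand, 575 bases before IPS1) and chr5:90424-90483 (minus strand, 333 bases before SQD2).
SPX1: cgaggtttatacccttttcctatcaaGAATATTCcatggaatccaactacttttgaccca
SPX3, farther match: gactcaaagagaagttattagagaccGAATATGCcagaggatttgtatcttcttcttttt
SPX3, nearer match: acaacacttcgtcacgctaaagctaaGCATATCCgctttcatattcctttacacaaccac
IPS1: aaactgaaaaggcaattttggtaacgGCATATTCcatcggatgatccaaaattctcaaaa
SQD2: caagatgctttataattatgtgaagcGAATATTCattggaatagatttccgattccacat
IPS1 had another match, GCATATTC, 541 bases before its start. No match was found in this window before PHT1;4, PHO1;H1, PAP17, SQD1 or MGD3, which says only that these letters are not in it.

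IPS1 (AT3G09922, chromosome 3, 3050989 to 3051530, plus strand) makes a noncoding RNA that holds the microRNA miR399 off its target PHO2 by imperfect pairing. The pairing site is shown because it is how the gene works. RefSeq's TAIR10.1 gave 6 mature miR399 sequences of the same seed, bases 2 to 8, in capitals below, of which 3 are printed. The site in IPS1 at chr3:3051224-3051247 (plus strand, bases 236 to 259 of the transcript) pairs with 16 to 18 of their 21 bases around a bulge of 3 bases, also in capitals.
miR399a: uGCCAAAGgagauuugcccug
miR399b: uGCCAAAGgagaguugcccug
miR399d: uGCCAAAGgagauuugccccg
IPS1 site: uugggcaacuuCUAuccuuuggca
The precursor loci of miR399 had 3 reads in all 30 libraries at MIR399b, 3 at MIR399c and 0 at the other 4, so they could not be compared at this depth.

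Set against transcript length, the sulfolipid genes stood far above the rest. Median levels over the 30 libraries were 54.5 CPM per kilobase of exon for SQD1 and 32.7 for SQD2. SPX1 followed at 6.24, PAP17 at 4.26, PHO1;H1 at 3.71, PHT1;4 at 2.05 and MGD3 at 0.838 CPM per kilobase. IPS1 at 0.324 and SPX3 at 0.188 CPM per kilobase were lowest. The genes also differed in how much they varied. From the lowest to the highest library CPM differed 12.9-fold for MGD3, 9.69-fold for PAP17, 9.23-fold for SPX1 and 4.78-fold for PHT1;4, but 2.49-fold for PHO1;H1, 1.40-fold for SQD1 and 1.32-fold for SQD2.

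**Figure D1:**
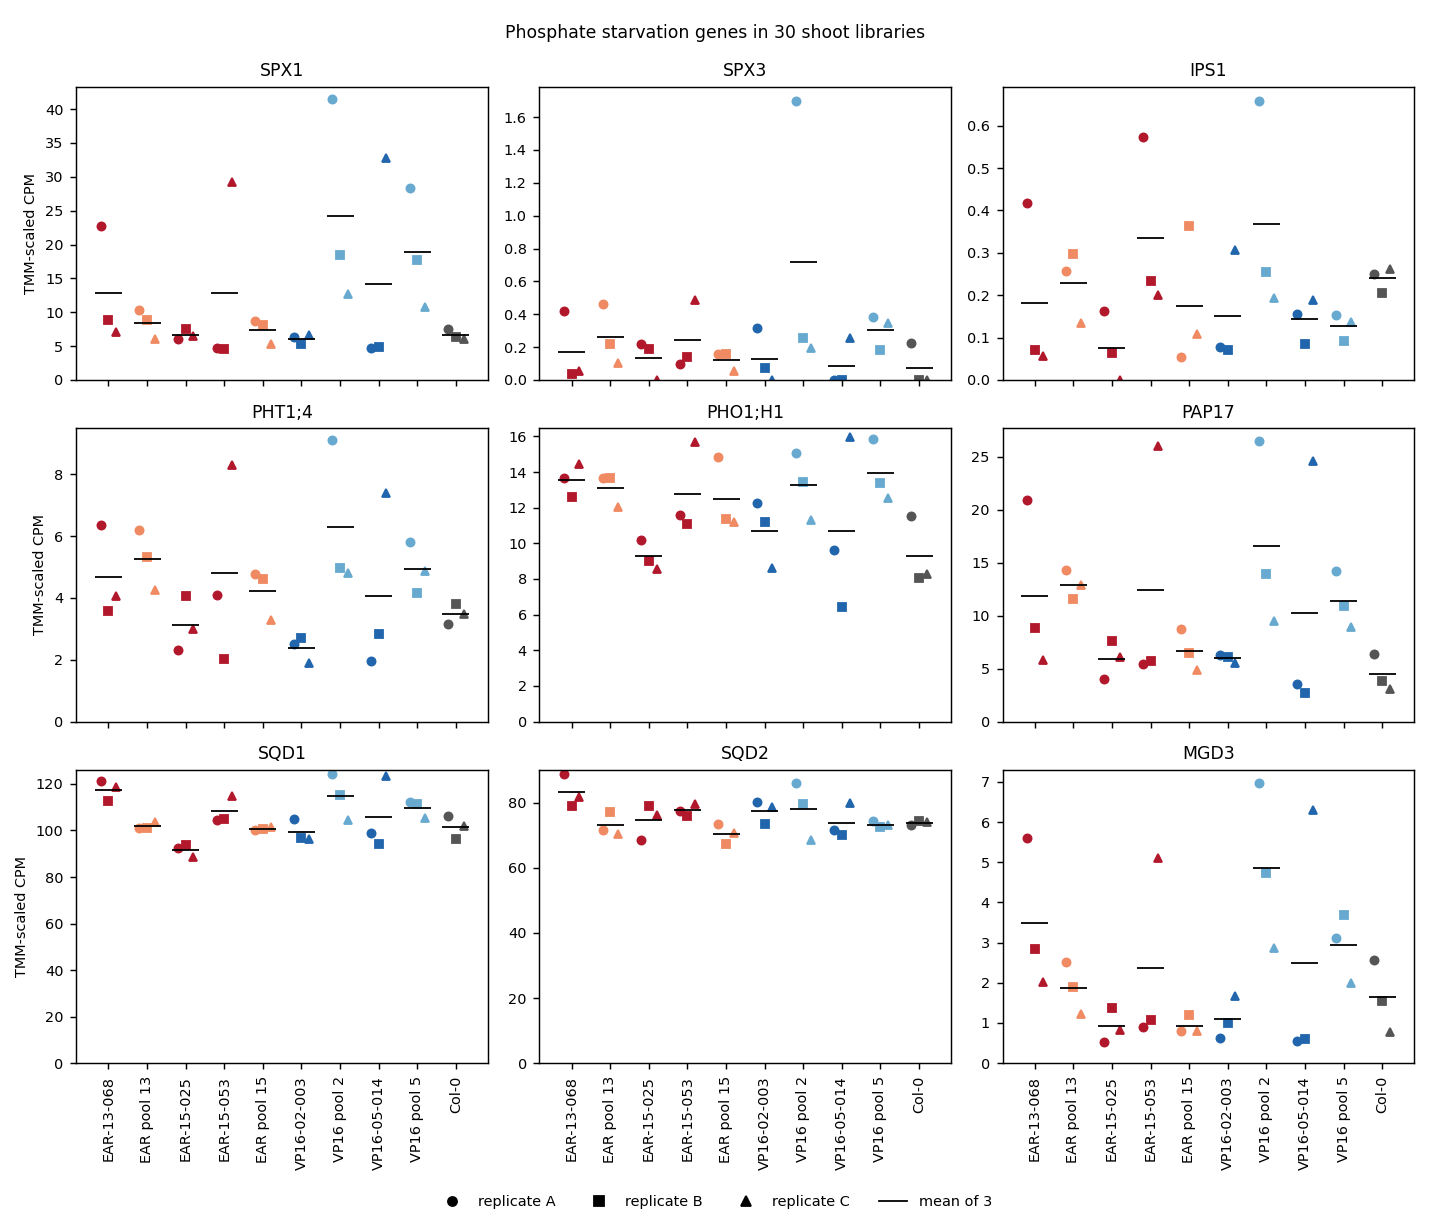
Level of each of the 9 genes in the 30 libraries. The vertical axis is TMM-scaled CPM from 0, the horizontal axis the 10 groups, with pool backgrounds marked pool; points are libraries by replicate letter and bars group means of 3, in red and orange for EAR, blue for VP16 and grey for Col-0. SPX1, PHT1;4, PAP17 and MGD3 are raised in the same single libraries, with SPX1 at 41.5 CPM in VP16 pool 2 background A and 32.8 CPM in VP16-05-014 C, while SQD1 stays between 88.7 and 124.2 CPM.

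SPX1 (AT5G20150, chromosome 5, 6802282 to 6803655, plus strand) encodes a nuclear SPX-domain protein that binds PHR1 when phosphate is plentiful and is itself a PHR1 target. In replicates A, B and C, SPX1 had 6.30, 5.31 and 6.57 CPM in VP16-02-003, against 41.5, 18.5 and 12.7 CPM in the VP16 pool 2 background. It had 4.70, 4.79 and 32.8 CPM in VP16-05-014, against 28.3, 17.6 and 10.8 CPM in the VP16 pool 5 background. All VP16-02-003 libraries thus lay below all of their pool, whereas in VP16-05-014 replicate C lay above its pool and A and B below it. The share of all genes separated from a pool in this way was not counted, here or for the genes below. Among the EAR groups SPX1 had 22.8, 8.83 and 7.09 CPM in EAR-13-068, against 10.4, 8.86 and 6.03 CPM in the EAR pool 13 background. It had 6.09, 7.58 and 6.43 CPM in EAR-15-025 and 4.68, 4.49 and 29.2 CPM in EAR-15-053, against 8.67, 8.10 and 5.37 CPM in the EAR pool 15 background. EAR-13-068 A and EAR-15-053 C lay above their pools, EAR-15-053 A and B below theirs, and the other EAR line libraries within the range of theirs. Col-0 had 7.47, 6.29 and 6.04 CPM, in the lower part of the range. The lowest group mean was 6.06 CPM in VP16-02-003 and the highest 24.2 CPM in the VP16 pool 2 background, a 4.0-fold range, and the libraries of all 9 pairs of neighbours in that order overlapped.

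SPX3 (AT2G45130, chromosome 2, 18606410 to 18607853, plus strand), another SPX protein that responds strongly to phosphate, had 171 reads over the 30 libraries and none in 6 of them. VP16 pool 2 background A held 49 of these reads, at 1.70 CPM, and no other library exceeded 0.484 CPM. IPS1 had 144 reads in all, at most 19 in a library and none in 1, with VP16 pool 2 background A again the highest at 0.659 CPM. A count of 0 allows up to 3 reads, or 0.0749 to 0.310 CPM depending on the library, so most of these levels lie near what the depth can show. Counting error alone is covered by that limit. Fitted without the filter, neither gene was called in any comparison by edgeR's quasi-likelihood test, with lowest adjusted p of 0.102 for SPX3 and 0.256 for IPS1.

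PHT1;4 (AT2G38940, chromosome 2, 16257157 to 16260253, plus strand) is a high-affinity phosphate importer of the plasma membrane. It had 2.52, 2.69 and 1.91 CPM in VP16-02-003, against 9.13, 4.96 and 4.81 CPM in the VP16 pool 2 background, with no overlap, which was not counted over all genes. In VP16-05-014 it had 1.96, 2.82 and 7.39 CPM, against 5.80, 4.16 and 4.87 CPM in the VP16 pool 5 background, again with C above its pool and A and B below. EAR-13-068 had 6.38, 3.57 and 4.05 CPM, against 6.20, 5.32 and 4.26 CPM in the EAR pool 13 background. These groups overlapped. EAR-15-025 had 2.32, 4.07 and 2.99 CPM and EAR-15-053 4.1, 2.01 and 8.30 CPM, against 4.79, 4.62 and 3.28 CPM in the EAR pool 15 background, and both lines overlapped the pool. Col-0 had 3.15, 3.82 and 3.47 CPM. The lowest group mean of PHT1;4 was 2.37 CPM in VP16-02-003 and the highest 6.30 CPM in the VP16 pool 2 background, with overlap between all 9 pairs of neighbours.

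PHO1;H1 (AT1G68740, chromosome 1, 25812449 to 25816983, minus strand), a relative of the xylem phosphate exporter PHO1, varied less and did not follow the same libraries everywhere. It was 8.63 to 12.3 CPM in VP16-02-003, against 11.3 to 15.1 CPM in the VP16 pool 2 background, and 6.41 to 15.97 CPM in VP16-05-014, against 12.6 to 15.9 CPM in the VP16 pool 5 background. The 3 EAR-15-025 libraries, at 8.59 to 10.2 CPM, lay below those of EAR-15-053 at 11.1 to 15.7 CPM and of the EAR pool 15 background at 11.2 to 14.8 CPM. EAR-13-068 had 12.6 to 14.5 CPM, against 12.1 to 13.7 CPM in the EAR pool 13 background, and Col-0 had 8.05 to 11.6 CPM. Its lowest group mean was 9.27 CPM in EAR-15-025 and its highest 13.9 CPM in the VP16 pool 5 background.

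PAP17 (AT3G17790, chromosome 3, 6089381 to 6091231, plus strand), a purple acid phosphatase, followed SPX1 most closely in deviations from the group means, with a Pearson r of 0.95. Over all libraries r with SPX1 was 0.88 for PAP17 and 0.89 for MGD3. PAP17 had 6.30, 6.09 and 5.50 CPM in VP16-02-003, against 26.5, 13.9 and 9.48 CPM in the VP16 pool 2 background, and the groups did not overlap. In VP16-05-014 it had 3.52, 2.74 and 24.6 CPM, against 14.3, 10.9 and 8.96 CPM in the VP16 pool 5 background. Replicate C was the highest of these 6 libraries and A and B the lowest. PAP17 had 20.9, 8.87 and 5.85 CPM in EAR-13-068, against 14.3, 11.6 and 12.9 CPM in the EAR pool 13 background. It had 3.99, 7.64 and 6.09 CPM in EAR-15-025 and 5.44, 5.71 and 26.1 CPM in EAR-15-053, against 8.72, 6.49 and 4.83 CPM in the EAR pool 15 background. Both EAR-13-068 and EAR-15-053 thus had 1 library above their pool, and all 3 EAR lines overlapped their pools. Col-0, at 6.42, 3.82 and 3.10 CPM, had the lowest group mean, 4.45 CPM. The gene overlaps AT3G17800 on the other strand. Since the strand setting and mode of the counting are not stated, how reads in the shared stretch were assigned is not known. AT3G17800 had 55.2 to 115.7 CPM and a log2 fold change of -0.12 between VP16-02-003 and the VP16 pool 2 background.

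MGD3 (AT2G11810, chromosome 2, 4743162 to 4746813, plus strand) encodes a galactolipid synthase of the outer plastid envelope that is strongly induced when phosphate is short. It had 0.630, 0.992 and 1.68 CPM in VP16-02-003, against 6.97, 4.74 and 2.87 CPM in the VP16 pool 2 background, without overlap, which was not counted over all genes. In VP16-05-014 it had 0.548, 0.598 and 6.31 CPM, against 3.13, 3.70 and 1.99 CPM in the VP16 pool 5 background. As for PAP17, replicate C was the highest of the 6 and A and B the lowest. MGD3 had 5.61, 2.84 and 2.03 CPM in EAR-13-068, against 2.51, 1.89 and 1.23 CPM in the EAR pool 13 background. It had 0.539, 1.38 and 0.831 CPM in EAR-15-025 and 0.906, 1.08 and 5.12 CPM in EAR-15-053, against 0.798, 1.19 and 0.805 CPM in the EAR pool 15 background. Each EAR line overlapped its pool. EAR-13-068 A and B, EAR-15-025 B and EAR-15-053 C lay above all 3 libraries of their pools, EAR-15-025 B by little. Col-0 had 2.57, 1.55 and 0.788 CPM. The count behind MGD3 was the smallest of the 7 genes kept, 7 to 201 reads in a library.

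SQD1 (AT4G33030, chromosome 4, 15935373 to 15937833, plus strand) makes UDP-sulfoquinovose, the head group of sulfolipid, and SQD2 (AT5G01220, chromosome 5, 86543 to 90117, minus strand) joins it to diacylglycerol. SQD1 had 105.1, 96.8 and 96.2 CPM in VP16-02-003, against 124.2, 115.4 and 104.6 CPM in the VP16 pool 2 background, with an overlap of under 1 CPM. It had 99.0, 94.4 and 123.5 CPM in VP16-05-014, against 112.3, 111.6 and 105.2 CPM in the VP16 pool 5 background. In the EAR pool 13 pair, SQD1 had 121.1, 112.5 and 118.9 CPM in EAR-13-068, against 100.9, 101.0 and 103.8 CPM in the pool background, so every line library was higher. In the EAR pool 15 set it had 92.4, 93.9 and 88.7 CPM in EAR-15-025 and 104.4, 105.1 and 115.0 CPM in EAR-15-053, against 100.3, 100.5 and 101.4 CPM in the pool background. The libraries of EAR-15-025 were all below the pool and those of EAR-15-053 all above it. Col-0 had 106.3, 96.5 and 101.8 CPM. SQD2 ranged from 67.4 to 89.0 CPM over all libraries, and its group means from 83.2 CPM in EAR-13-068 to 70.5 CPM in the EAR pool 15 background.

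Within groups, the same library tended to be high for most of the 9 genes. VP16-05-014 C was the highest of its group for 9 of 9, as was VP16 pool 2 background A. EAR-13-068 A, EAR-15-053 C and VP16 pool 5 background A were the highest for 8 of 9 each. Of these 5 libraries only EAR-15-053 C and VP16-05-014 C are among the 4 that earlier work had set apart. In VP16-05-014 C the 7 kept genes all deviated upward from the group mean, and by most for MGD3. The summed leaf markers were the lowest of their group in EAR-13-068 A at 77573 CPM, EAR-15-053 C at 74967 CPM, VP16-05-014 C at 73442 CPM and VP16 pool 2 background A at 64086 CPM, but not in VP16 pool 5 background A at 76112 CPM. The part of leaf markers in the result was not tested. Over all genes the libraries farthest from the others of their group were VP16-05-014 C, VP16 pool 2 background C and EAR-15-053 C. The per-gene chi-square, divided by its degrees of freedom, was 49.3 and 59.4 between VP16-05-014 C and its replicates A and B, against 7.21 between A and B. For VP16 pool 2 background C it was 39.6 and 25.7, against 10.3 between A and B, and that library was the lowest of its group for 9 of 9 genes. For EAR-15-053 C it was 23.9 and 29.5, against 3.96 between A and B.

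**Figure D2:**
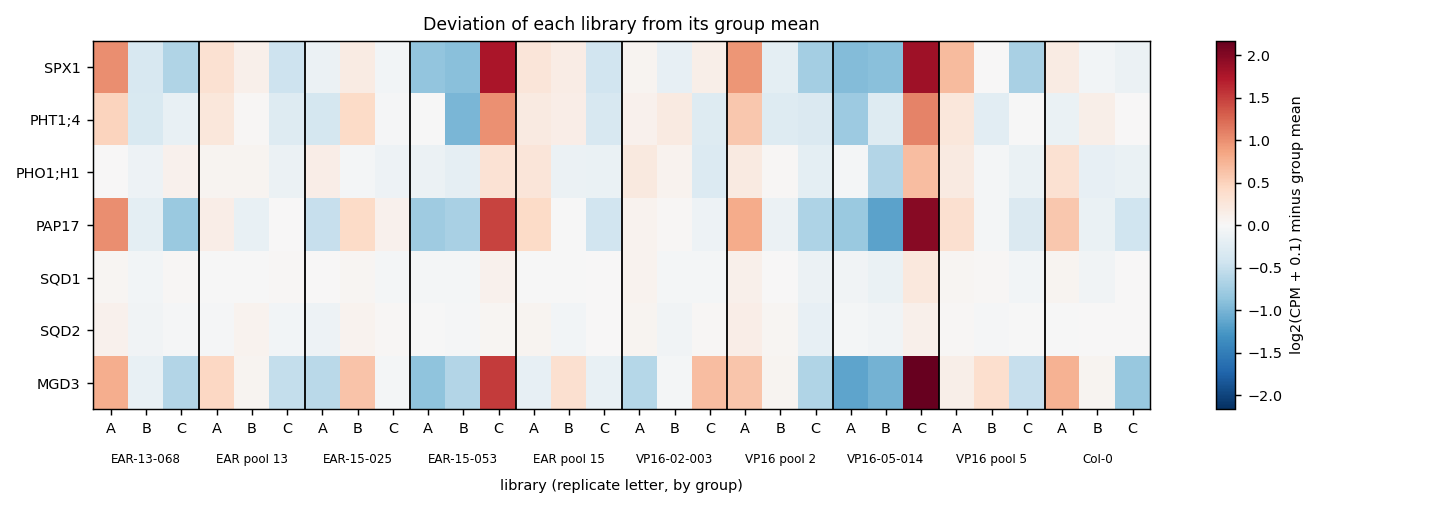
Deviation of each library from the mean of its group for the 7 genes kept by the filter, on the scale of log2(CPM + 0.1), with red above and blue below the mean. Columns are the 30 libraries by group and replicate letter. VP16-05-014 C and EAR-15-053 C are red for SPX1, PHT1;4, PAP17 and MGD3, and the rows of SQD1 and SQD2 are pale throughout.

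As a description of how the genes moved together, deviations from the group means on the scale of log2(CPM + 0.1) were correlated over the 30 libraries, which share their depth and preparation with all other genes. SPX1 and PAP17 had a Pearson r of 0.95 and a Spearman rho of 0.90, and r was 0.90 without the 2 libraries farthest from the median of SPX1, VP16-05-014 C and EAR-15-053 C. PAP17 and MGD3 had r = 0.91, SPX1 and MGD3 0.89, and SPX1 and PHT1;4 0.86. Without the same 2 libraries these were 0.82, 0.80 and 0.76. SQD1, with its small range, had r = 0.79 with SPX1, and the weakest pair was PHO1;H1 with SQD2 at 0.47.

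Of the 5 comparisons of a line with its pool, only VP16-02-003 against the VP16 pool 2 background gave calls among the 9 genes. A call is an adjusted p under 0.05, by Benjamini-Hochberg over all 19566 genes tested, in edgeR's quasi-likelihood test. SPX1, PHT1;4, MGD3 and SQD1 were called lower in VP16-02-003 than in this pool, 4 of the 7 tested, and none was called higher. Over all genes the same comparison called 29.1%, with 13.8% lower. The median log2 fold change of the 7 was -1.41, beside 0.01 over all genes, and all 7 values were negative. Against Col-0, none of the 4 called genes passed the threshold in the line or in the pool. SPX1, PHT1;4, MGD3 and SQD1 were at -0.14, -0.52, -0.67 and -0.03 in VP16-02-003 over Col-0. In the VP16 pool 2 background over Col-0 they were at 1.86, 0.89, 1.48 and 0.18.

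MGD3 averaged 1.1 ± 0.534 CPM in VP16-02-003 and 4.86 ± 2.06 CPM in the VP16 pool 2 background (SD, n = 3 each). Its log2 fold change was -2.15 (standard error, SE, 0.73, adjusted p = 0.0303, edgeR). SPX1 averaged 6.06 ± 0.660 CPM in VP16-02-003 and 24.2 ± 15.2 CPM in the pool, with a fold change of -2.01 on the log2 scale (SE 0.69, adjusted p = 0.0329, edgeR). PHT1;4 averaged 2.37 ± 0.411 CPM in VP16-02-003 and 6.30 ± 2.45 CPM in the pool, a fold change of -1.41 on the log2 scale (SE 0.44, adjusted p = 0.0184, edgeR). SQD1, the sulfolipid enzyme, averaged 99.4 ± 5.01 CPM in VP16-02-003 and 114.7 ± 9.82 CPM in the pool, with a change of -0.21 (SE 0.08, adjusted p = 0.0493, edgeR) that sits at the edge of the threshold. PAP17 was not called, at -1.49 (SE 0.65, adjusted p = 0.0852, edgeR). Its groups did not overlap, nor did those of SPX1, PHT1;4 and MGD3, but the share of all genes so separated was not counted. PHO1;H1 was at -0.32 (SE 0.21) and SQD2 at -0.01 (SE 0.07).

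The adjusted p of these calls depended on single libraries, and their size most on 1 pool library. Without VP16 pool 2 background A, the library highest for all 9 genes, no member was called by edgeR, where 23.8% of all genes were. SPX1 was then at -1.38 (adjusted p = 0.168), PHT1;4 at -1.04 (adjusted p = 0.0995), MGD3 at -1.81 (adjusted p = 0.097) and SQD1 at -0.15 (adjusted p = 0.209). Calls also fell away over all genes when other libraries were left out. Without VP16-02-003 B or C, 1 of the 4 calls was made, beside 19.0% and 19.4% of all genes. Without VP16-02-003 A or VP16 pool 2 background B it was 2, beside 23.6% and 20.6%. The fold change of SPX1 was -2.03, -1.92 and -2.07 without VP16-02-003 A, B and C, near the -2.01 with all libraries. Without VP16 pool 2 background C, the lowest library of its group, all 4 were called, SPX1 at -2.32, beside 24.2% of all genes. Without the 4 libraries set apart earlier, none of which belongs to these 2 groups, 5 members were called, PAP17 among them at -1.49 (adjusted p = 0.00157, edgeR), and 38.4% of all genes were.

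**Figure D3:**
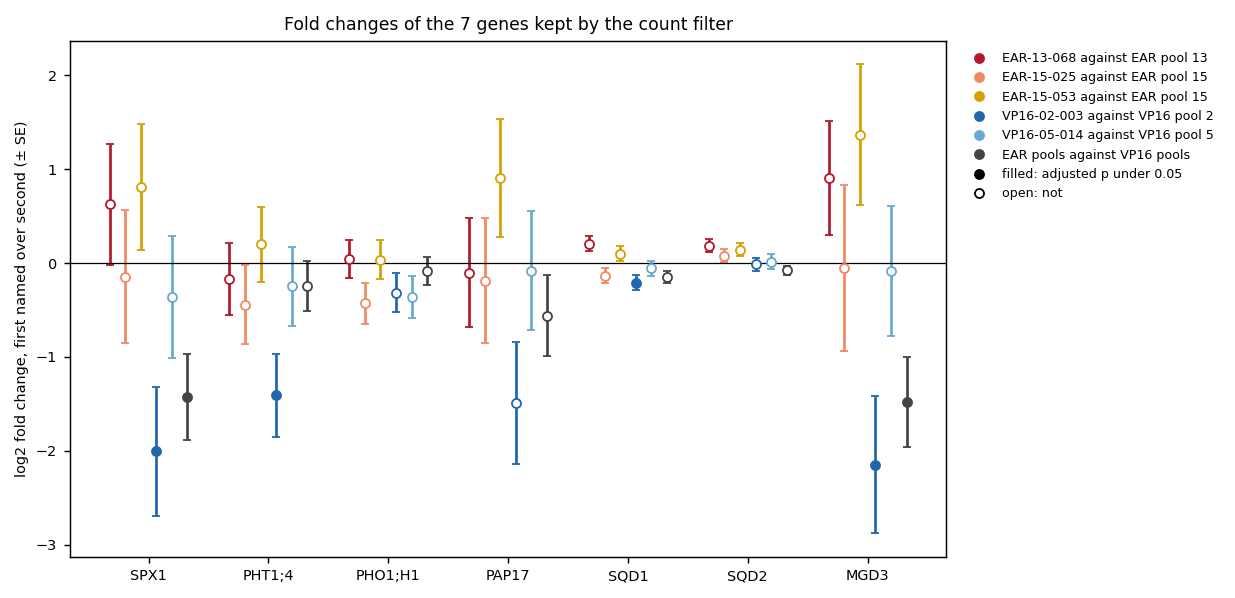
Log2 fold changes of the 7 genes kept by the filter, first named group over second, with standard errors, in the 5 comparisons of a line with its pool and in the EAR pools against the VP16 pools. Filled points have an adjusted p under 0.05 in edgeR's quasi-likelihood test. SPX1, PHT1;4, SQD1 and MGD3 are filled for VP16-02-003 and SPX1 and MGD3 for the EAR pools.

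In VP16-05-014 against the VP16 pool 5 background, edgeR called none of the 7 genes, none had an unadjusted p under 0.05, and DESeq2 called none. Over all genes 1.5% were called, and 19.8% had an unadjusted p under 0.05. SPX1 was at -0.36 (SE 0.65), PHT1;4 at -0.25 (SE 0.42), PAP17 at -0.08 (SE 0.63) and MGD3 at -0.09 (SE 0.69) and replicate C was the high library for each. Without VP16-05-014 C, edgeR called 3 members, all lower in the line, where 25.7% of all genes were called. They were SPX1 at -1.97 (SE 0.72, adjusted p = 0.0454), PHO1;H1 at -0.79 (SE 0.21, adjusted p = 0.00783) and SQD1 at -0.19 (SE 0.07, adjusted p = 0.0475). PAP17 was then at -1.84 (adjusted p = 0.0511) and MGD3 at -2.29 (SE 0.86), neither called. Without all 4 libraries set apart, 5 members were called lower, SPX1, PHT1;4, PHO1;H1, PAP17 and MGD3, and 29.1% of all genes. VP16-05-014 C was set apart on its whole transcriptome, but it is also the library in which these genes were highest, so values without it are not independent of that choice.

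**Figure D4:**
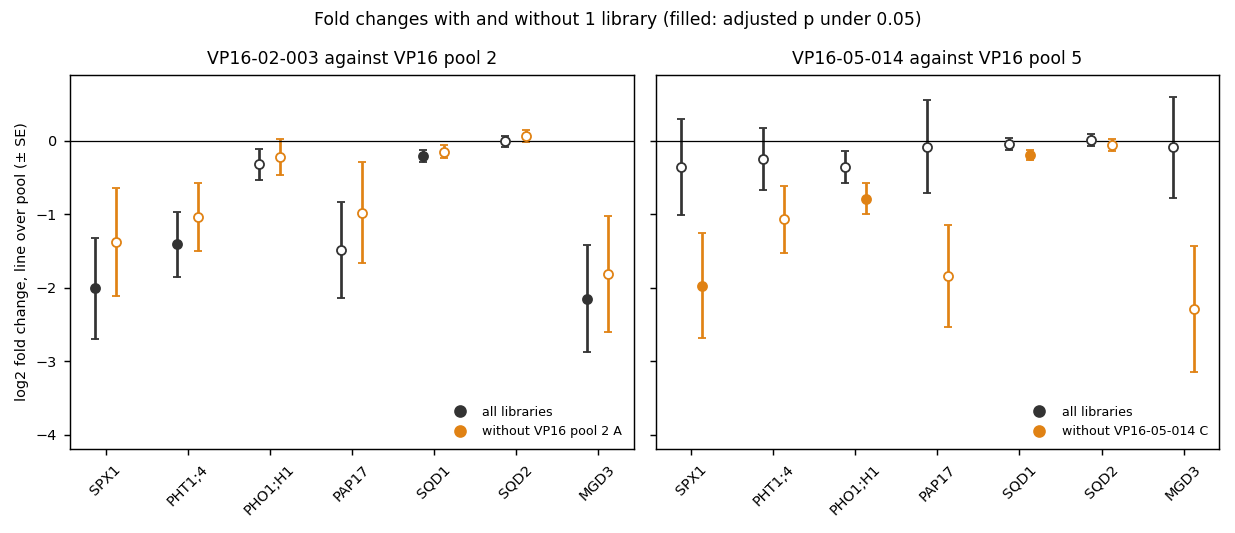
Log2 fold changes with standard errors of the 7 genes in the 2 VP16 lines over their pools, with all libraries (dark) and without 1 library (orange), which is VP16 pool 2 background A on the left and VP16-05-014 C on the right. Filled points have an adjusted p under 0.05. On the left 4 points lose their fill, and on the right SPX1, PHO1;H1 and SQD1 gain it.

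The difference between the effects of VP16-02-003 and VP16-05-014, each against its own pool, was tested directly. No member was called by edgeR or DESeq2, none had an unadjusted p under 0.05, and of all genes 1.83% were called and 13.9% had an unadjusted p under 0.05. MGD3 came nearest, at a difference of -2.06 (SE 1.02, adjusted p = 0.371, edgeR), followed by PHT1;4 at -1.16 (SE 0.61) and SPX1 at -1.64 (SE 0.95). Set directly against each other, VP16-02-003 and VP16-05-014 gave 0 calls among the members by edgeR, 0 at an unadjusted p under 0.05 and 0 by DESeq2, beside 8.70% of all genes called and 25.2% at an unadjusted p under 0.05. A call in 1 line and not in the other therefore does not show that the lines differed in these genes.

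None of the 3 EAR lines differed from its pool in a member at the threshold. In EAR-13-068 against the EAR pool 13 background, 0 were called by edgeR or DESeq2 and 2 had an unadjusted p under 0.05, beside 0.235% of all genes called and 11% at that unadjusted p. These 2 were the sulfolipid genes. SQD1 averaged 117.5 ± 4.44 CPM in EAR-13-068 and 101.9 ± 1.61 CPM in the EAR pool 13 background, a fold change of 0.21 on the log2 scale (SE 0.08, adjusted p = 0.31, edgeR). SQD2 averaged 83.2 ± 5.21 CPM in EAR-13-068 and 73.1 ± 3.54 CPM in the pool background, at 0.19 (SE 0.07, adjusted p = 0.336, edgeR). The groups did not overlap for either gene, but the share of all genes so separated was not counted.

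In EAR-15-025 against the EAR pool 15 background, edgeR called 0 members and 0 had an unadjusted p under 0.05, beside 0.0511% of all genes called and 8.84% at that unadjusted p. DESeq2 gave no adjusted p for 5 of the 7, and called neither SQD1 nor SQD2. SQD1 was at -0.14 (SE 0.08) and PHO1;H1 at -0.43 (SE 0.22). The groups overlapped for neither, which was likewise not counted over all genes. EAR-15-053 against the same pool background gave 0 by edgeR and 0 at an unadjusted p under 0.05, beside 0.00511% and 5.79% of all genes. DESeq2 called 0 of 6, with no adjusted p for MGD3. MGD3 was at 1.37 (SE 0.75) and PAP17 at 0.91 (SE 0.63), and EAR-15-053 C was the high library for both. Both comparisons share the pool libraries. EAR-15-025 set directly against EAR-15-053 gave 0 calls by edgeR or DESeq2 and 2 members at an unadjusted p under 0.05, SQD1 at -0.24 (SE 0.08, adjusted p = 0.368, edgeR) and PHO1;H1 at -0.47 (SE 0.21, adjusted p = 0.499, edgeR), beside 0.0153% of all genes called and 9.71% at that unadjusted p. After the SQD1 libraries of EAR-13-068 and EAR-15-025 were seen to lie on opposite sides of their pools, the difference of these 2 effects was also tested. It was 0.34 for SQD1 (SE 0.11, adjusted p = 0.739, edgeR), with 0 members called by edgeR or DESeq2, 1 at an unadjusted p under 0.05, beside 0.0358% of all genes called and 4.71% at that unadjusted p.

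Between the pool backgrounds, SPX1 and MGD3 were lower in the 2 EAR pools than in the 2 VP16 pools. The comparison set the mean of the EAR pool 13 and EAR pool 15 backgrounds against that of the VP16 pool 2 and VP16 pool 5 backgrounds. It called 2 of the 7 members, both lower, beside 20.9% of all genes, 9.48% lower. SPX1 was at -1.43 (SE 0.46, adjusted p = 0.03, edgeR) and MGD3 at -1.48 (SE 0.48, adjusted p = 0.0324, edgeR). All 6 EAR pool libraries lay at or below 10.4 CPM of SPX1, against 10.8 to 41.5 CPM in the 6 VP16 pool libraries. The groups thus did not overlap, though by little, and the share of all genes so separated was not counted. MGD3 ranged from 0.798 to 2.51 CPM in the EAR pool libraries, against 1.99 to 6.97 CPM in the VP16 pool libraries, which overlapped.

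DESeq2 called SQD1 as well (log2 fold change -0.15, adjusted p = 0.0411), which edgeR did not (adjusted p = 0.0613). PAP17 was at -0.56 (SE 0.43), PHT1;4 at -0.24 (SE 0.27), PHO1;H1 at -0.09 (SE 0.15) and SQD2 at -0.08 (SE 0.05). Without VP16 pool 2 background A edgeR called no member, with SPX1 at -1.11 (adjusted p = 0.0973) and MGD3 at -1.30 (adjusted p = 0.073), where 18.6% of all genes were called. Leaving out any of EAR pool 13 background B or C, EAR pool 15 background B or C or VP16 pool 5 background A also left 0 calls, beside 14.8 to 17.0% of all genes. Leaving out EAR pool 15 background A or VP16 pool 5 background B left 1, beside 18.2% and 15.8%. The fold change of SPX1 lay between -1.59 and -1.11 in each of the 12 fits that left out 1 pool library.

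Set against Col-0, no group had a member past the threshold in edgeR or DESeq2. The lowest adjusted p was that of SQD1 in EAR-13-068, given with the lines. The VP16 pool 2 background had the most members at an unadjusted p under 0.05, 6 of 7, all higher in the pool, beside 0.0153% of all genes called and 11.1% at that unadjusted p. Its library A was the highest of the group for 9 of 9 members, and members moved together within groups. They are thus not 6 separate results. SPX1 averaged 24.2 ± 15.2 CPM in the VP16 pool 2 background, with a log2 fold change over Col-0 of 1.86 (SE 0.67, adjusted p = 0.307, edgeR). PAP17 was at 1.84 (SE 0.64, adjusted p = 0.296, edgeR) and MGD3 at 1.48 (SE 0.64, adjusted p = 0.397, edgeR). The VP16 pool 5 background had 2 members at an unadjusted p under 0.05, SPX1 at 1.48 (SE 0.68) and PHO1;H1 at 0.55 (SE 0.22), beside 0.00511% of all genes called and 9.79% at that unadjusted p. In the EAR pool 13 background 2 members, PAP17 at 1.47 (SE 0.64) and PHO1;H1 at 0.47 (SE 0.21), and in the EAR pool 15 background 0, had an unadjusted p under 0.05, beside 23.3% and 22.6% of all genes at that unadjusted p and 8.71% and 6.61% called.

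Of the lines, EAR-13-068 had 4 members at an unadjusted p under 0.05 against Col-0, PHO1;H1, PAP17, SQD1 and SQD2, all higher in the line, beside 9.29% of all genes called and 23.9% at that unadjusted p. SQD1 was at 0.21 (SE 0.08, adjusted p = 0.0958, edgeR). EAR-15-053 had 1, PAP17 at 1.42 (SE 0.64), beside 10.8% of all genes called and 27.2% at that unadjusted p. For EAR-15-025, VP16-02-003 and VP16-05-014 it was 0 members, beside 18.3%, 35.8% and 14.4% of all genes at that unadjusted p and 4.34%, 23.2% and 0.526% called. SPX1 in VP16-02-003, at 6.06 ± 0.660 CPM, stood beside 6.6 CPM in Col-0. All these comparisons share the Col-0 libraries, and each pool also stands in the comparison with its line.

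Members were called against Col-0 in 3 comparisons once the 4 libraries set apart earlier were left out, all higher than in Col-0. In the VP16 pool 2 background they were SPX1 at 1.85, PAP17 at 1.81 and MGD3 at 1.45, with 4.16% of all genes called. In EAR-13-068 they were SPX1 and MGD3 at 1.24 each, PAP17 at 1.65 and SQD1 at 0.20, with 18.9% of all genes called. EAR-13-068 C, left out here, was the lowest library of its group for SPX1, PAP17 and MGD3. With all libraries these 3 were at 0.96, 1.36 and 1.02, so the values without it are not independent of that choice. In the EAR pool 13 background they were PAP17 at 1.43 and PHO1;H1 at 0.45, with 16.7% of all genes called. With only the EAR pool 13 background and Col-0 in the fit, PAP17 at 1.44 and PHT1;4 at 0.62 were called, with 11.8% of all genes.

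Beyond the 9, a wider list of 60 phosphate genes was described, of which 48 passed the filter. In VP16-02-003 against the VP16 pool 2 background, 14 of the 48 were called, 2 higher and 12 lower. That is 29.2%, near the 29.1% over all genes, and the list's median log2 fold change was -0.10, beside 0.01 over all genes. Of signalling genes 3 of 16 were called, of transport genes 4 of 9, of phosphatase and recycling genes 4 of 13 and of lipid genes 3 of 10.

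The largest changes among the called genes were lower in the line. ZAT6, a zinc-finger factor of phosphate homeostasis and stress responses, was at -2.90 (SE 0.53, adjusted p = 0.000422, edgeR), with 2.16 ± 0.125 CPM in VP16-02-003 and 16.03 ± 5.77 CPM in the VP16 pool 2 background. PEPC1, a phosphatase of phosphoethanolamine and phosphocholine, was at -1.91 (SE 0.50), GDPD1 and GDPD6, which break down glycerophosphodiesters, at -1.68 (SE 0.52) and -1.31 (SE 0.26), and PLDZ2, a phospholipase D, at -1.29 (SE 0.45). SPDT, a phosphate distributor also named SULTR3;4, was at -1.02 (SE 0.32), UGP3, which supplies UDP-glucose for sulfolipid, at -0.67 (SE 0.11), and the plastid phosphate transporter PHT2;1 at -0.63 (SE 0.20). The 2 higher genes changed little, PHO2, the ubiquitin-conjugating enzyme targeted by miR399, at 0.35 (SE 0.12) and the SUMO ligase SIZ1 at 0.23 (SE 0.08). PHR1 and its relative PHL1 were not called. GDPD1, GDPD6, PLDZ2, SPDT, UGP3 and PHR1 each overlap an annotated neighbour, as do PAP1 and PHT4;1, named below. Reads of these genes in the shared stretch carry the same limit as those of PAP17.

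**Figure D5:**
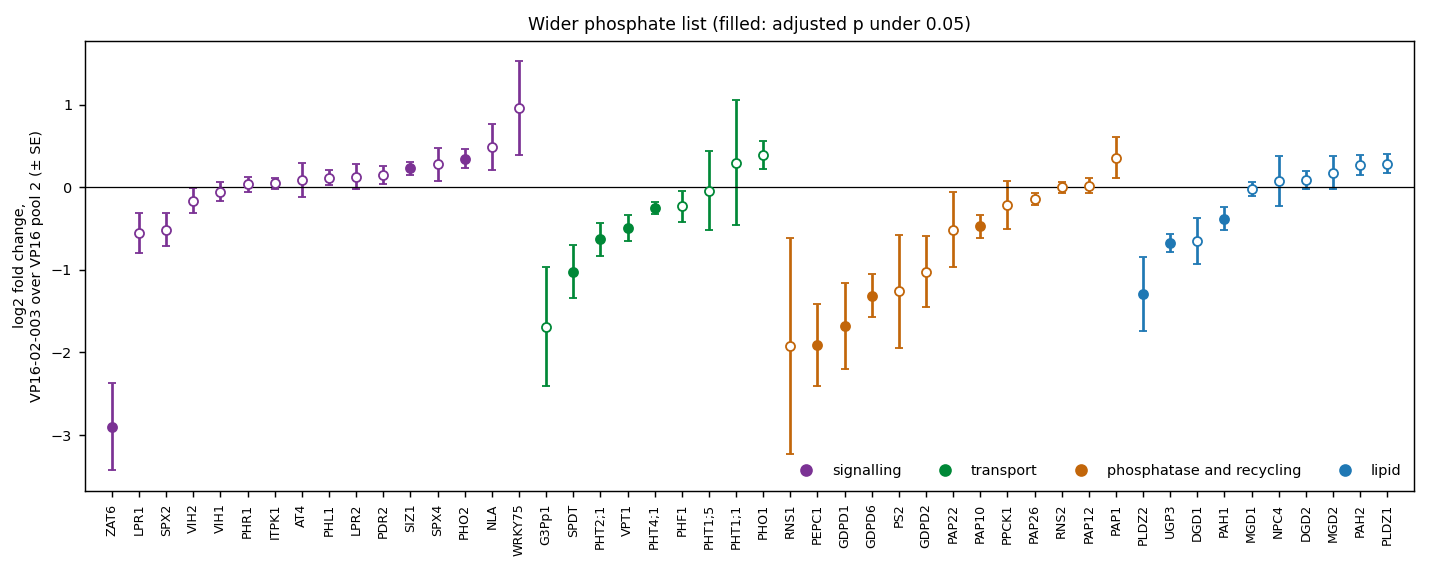
Log2 fold change of VP16-02-003 over the VP16 pool 2 background, with standard error, for the 48 genes of the wider phosphate list that passed the filter, ordered by role and size. Filled points have an adjusted p under 0.05. ZAT6 at -2.90 is the lowest, and 12 of the 14 filled points lie below 0.

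In the EAR pools against the VP16 pools the list gave 13 called genes of 48, 7 higher and 6 lower, 27.1% beside the 20.9% over all genes. ZAT6 was at -2.48 (SE 0.35), GDPD1 at -1.01 (SE 0.34), the galactolipid synthase MGD2 at 0.50 (SE 0.13) and the phospholipase C NPC4 at 0.54 (SE 0.18). MGD2, the nearest relative of MGD3, thus stood on the other side of 0 from MGD3 in this comparison. The multicopper oxidase LPR2 was at 0.46 (SE 0.10), the purple acid phosphatase gene PAP1 (AT1G13750) at 0.53 (SE 0.18), its relative PAP12 at -0.31 (SE 0.07) and PHO1 at 0.33 (SE 0.12).

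In the other comparisons of a line with its pool the list gave 1 call of 48, UGP3 at -0.44 (SE 0.11, adjusted p = 0.0437, edgeR) in VP16-05-014, where 4 genes (8.33%) had an unadjusted p under 0.05, beside 19.8% of all genes. The 3 EAR lines gave 0 by edgeR. An unadjusted p under 0.05 was found for 6 genes (12.5%) in EAR-13-068, beside 11% of all genes, and 4 each (8.33%) in EAR-15-025 and EAR-15-053, beside 8.84% and 5.79%. DESeq2 called 0, 2 and 0, with no adjusted p for 38 of the 48 genes in EAR-15-025 and for 11 in EAR-15-053. Set directly against VP16-05-014, VP16-02-003 had 2 of the 48 called (4.17%), beside 8.7% of all genes. Both were lower in VP16-02-003, GDPD6 at -1.29 (SE 0.27) and the phosphate transporter PHT4;1 at -0.27 (SE 0.07).

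Against Col-0 the list gave 7 calls of 48 (14.6%) for the EAR pool 13 background, beside 8.71% of all genes, and 5 (10.4%) for EAR pool 15, beside 6.61%. Among the lines it gave 12 (25%) for VP16-02-003, beside 23.2% of all genes, and 6 (12.5%) for EAR-13-068, beside 9.29%. It gave 5 (10.4%) for EAR-15-053, beside 10.8%, and 1 (2.08%) for EAR-15-025, beside 4.34%. The shares for VP16-02-003 and EAR-15-053 were thus near those over all genes. LPR2 was called higher in both EAR pools and in EAR-13-068, EAR-15-053 and VP16-02-003, at 0.69, 0.67, 0.65, 0.71 and 0.46. MGD2 was called higher in the EAR pool 13 background at 0.73, in EAR-13-068 at 0.78 and in EAR-15-053 at 0.77. WRKY75, a regulator of the phosphate response and of leaf ageing, rose in VP16-02-003 to 1.12 ± 0.422 CPM (45 reads), against 0.111 ± 0.012 CPM in Col-0 (8 reads), a fold change of 3.22 on the log2 scale (SE 0.77, adjusted p = 0.00472, edgeR). Against its own pool it was not called, at 0.96 (SE 0.57, adjusted p = 0.207, edgeR). AT4, a noncoding relative of IPS1, fell in the EAR pool 15 background to 1.60 ± 0.322 CPM, against 2.78 ± 0.390 CPM in Col-0, at -0.76 (SE 0.22, adjusted p = 0.037, edgeR). UGP3 was called lower in VP16-02-003 at -0.74 and in the EAR pool 15 background at -0.54. PAP12 was called lower in both EAR pools, at -0.47 in pool 13 and -0.37 in pool 15, and in EAR-15-025 at -0.56. GDPD6 at -1.44 (SE 0.26) and GDPD2 at -1.36 (SE 0.43) were called lower in VP16-02-003. PAP1 was called higher in the EAR pool 13 and EAR pool 15 backgrounds, EAR-15-053 and VP16-02-003, at 0.85, 0.86, 1.02 and 0.91.

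The genes most like each member were sought by Pearson r of log2 CPM over the 30 libraries, among 19566 genes. For SPX1 they were GDPD1 (r = 0.93), which RefSeq names SRG3, the kinase gene MPK19 (0.93) and AT3G14200 (0.90). For PAP17 they were the transporter DTX35 (0.93), CLPB4 (0.91) and the glycerol-3-phosphate permease G3Pp1 (0.91). SQD1 was most like NET1B (0.89), SPDT (0.88) and AT1G76620 (0.88), so for 3 of the 7 genes 1 of the 3 nearest was on the wider list.

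For MGD3 the nearest were BBX18 (0.90), HSP81-3 (0.89) and AT3G29760 (0.88), and for PHT1;4 AT1G23110 (0.88), the mitochondrial chaperone MTHSC70-2 (0.86) and HSP81-3 (0.84), a heat shock protein of the HSP90 family. PHO1;H1 was most like TPR10 (0.90), AT5G55070 (0.87) and AT1G71850 (0.87), and SQD2 like AT2G19880 (0.77), MSL5 (0.75) and AT4G01810 (0.73). How common such likeness was varied. An r over 0.80 was reached by 423 genes with SPX1 (2.16%), 512 with PAP17, 558 with PHO1;H1 and 449 with SQD1, by 179 with MGD3 (0.915%) and 70 with PHT1;4 (0.358%), and by 2 with SQD2. The 100 genes most like a member are 0.511% of all genes. Of the 48 genes of the wider list, they held 6 for PAP17, 4 for PHT1;4, 3 for SPX1, 2 for MGD3, 1 each for PHO1;H1 and SQD1 and 0 for SQD2.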

How the data were processed

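Each library has a deposited table of raw read counts by gene. Per the submitters' processing notes, the authors used TopHat2 2.0.5, HTSeq and the TAIR10 build, with no role or order stated. Counting mode, strand setting and annotation are not stated. The 5 entries naming no gene were left out, among them reads on no feature (0.765 to 1.94% of a library) and ambiguous reads (1.32 to 1.48%). Genes were kept by filterByExpr with a minimum count of 10, which left 19566 of 32679. In R 4.3.3 with edgeR 4.0.16, counts were scaled by TMM, and 1 quasi-likelihood fit held the 30 libraries in 10 groups. Calls had an adjusted p under 0.05 (Benjamini-Hochberg, all tested genes). The steps were tested on simulated data in which no library stood apart, so that test did not cover the dependence of calls on single libraries. DESeq2 1.42.0, other scalings, no filter, smaller sets of libraries and a replicate block were tried as alternatives. Depth was 10076308 to 40780331 reads, and replicates of a group differed by more than sampling noise, with a chi-square per degree of freedom of at least 3.54.

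The 9 members, the wider list of 60 genes, the marker lists and the tests were chosen with earlier results of these data known. The text names all 9 members, and of the wider list at most the 8 called genes with the largest log2 fold change in a comparison. Beside these, SIZ1 and PHO2 in VP16-02-003 against its pool, PHR1 and PHL1 were named after their values were seen. The likest genes are the 3 with the highest r for each member. Whether like-lettered libraries pair was checked by the correlation of their deviations from the group means. It passed 0.1 for all 3 letters in the EAR pool 15 background paired with Col-0 alone (0.279, 0.207 and 0.150), and no label pairs them. Sequences and positions come from RefSeq's TAIR10.1, not the authors' TAIR10. The count tables hold no coordinates, so none were carried between builds. Python 3.11.15 and matplotlib 3.10.9 drew the figures.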

Additional observations from a re-analysis of the deposited data

How the results depend on the processing

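Of 265 recomputed counts of called members over 19 comparisons, 246 stayed within 1.5 times the value given, and 13 comparisons never moved beyond it. The value given was 0 in all but VP16-02-003 against the VP16 pool 2 background and the EAR pools against the VP16 pools. For those at 0, staying within that range meant only that the count stayed 0. For VP16-02-003 against the VP16 pool 2 background, 4 members were called, and leaving out 1 replicate gave 0 to 4. For the EAR pools against the VP16 pools, 2 were called, and leaving out 1 replicate gave 0 to 3. For VP16-05-014 against the VP16 pool 5 background, 0 were called, and leaving out 1 replicate gave 0 to 3. Without the 4 libraries set apart earlier, the count was 5 for VP16-05-014 against its pool, 2 for the EAR pool 13 background, 3 for the VP16 pool 2 background and 4 for EAR-13-068, each of these 3 against Col-0. With the compared groups alone it was 2 for the EAR pool 13 background against Col-0. The cause was not tested.

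With the replicate block, 3 members in place of 4 were called in VP16-02-003 against the VP16 pool 2 background, where SQD1 had an adjusted p of 0.0535 in edgeR, and 2 in the EAR pools against the VP16 pools. The block changed no other count. SQD1 also lost its call there with library size alone (adjusted p = 0.199), without the filter (adjusted p = 0.0502) and with the compared groups alone (adjusted p = 0.0987), where PAP17 was called in its place (adjusted p = 0.00912, edgeR). No called member changed sign under any alternative run. Sign changes of members not called were counted in 3 comparisons only, the 2 VP16 lines against their pools and the EAR pools against the VP16 pools. There 18 of 315 recomputed values changed sign. The difference of the EAR-13-068 and EAR-15-025 effects was added after seeing the data.

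Over all genes, VP16-05-014 against its pool had 5075 called genes without VP16-05-014 C and 5727 without the 4 libraries, in place of 293. The EAR pools against the VP16 pools had 6387 without the 4, in place of 4095. Low counts limit the precision for SPX3, IPS1 and MGD3.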
